A study of Mus musculus with 2 samples.

Results

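The 8 genes described here encode Hox cofactors of the Meis and Pbx families, namely Meis1, Meis2, Meis3, Pknox1, Pknox2, Pbx2, Pbx3 and Pbx4. They were picked out by gene name and are 8 of the 27569 genes on the array. The files hold 6 of them under these names, and Meis2 and Meis3 were found through their RefSeq accessions. All 8 passed the filter on dim probes, which 15886 genes passed in all (the tested genes), by being well above background in the RNA with more signal. They were carried by 17 of 41174 probes, of which 13 were well above background in both RNAs on both arrays and 2 in neither.

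Meis, Pknox and Pbx proteins are TALE homeodomain proteins, named for the extra loop of amino acids within the homeodomain. A Pbx protein binds DNA together with a Hox protein and sharpens the choice of site, while Meis and Pknox (also called Prep) proteins bind Pbx, hold it in the nucleus and can join the same complex on DNA. In the embryo these cofactors pattern the limbs, the hindbrain and the body axis, and fibroblasts keep part of the Hox code of the place they came from.

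Gene expression was measured in mouse embryonic fibroblasts (MEFs), which are primary cells of connective tissue, of the C57BL/6J strain and without any treatment. Cells that lack the Lats2 kinase (Lats2-/-, KO) were compared with Lats2+/+ (WT) cells. The arrays addressed, in mouse cells, the link between Lats2 and Polycomb repressive complex 2, which holds genes silent. The labels spell the genotypes LATS2 in some fields and LAT2 in others, and give neither embryo, age, passage nor the number of embryos behind an RNA. KO and WT RNA were labelled with Cy5 (red) and Cy3 (green) and hybridised together to an array of 60-base probes, and the dyes were exchanged on the second array. The labels name 1 RNA per genotype, so both arrays together were counted as 1 replicate. The spread between them is then technical, and no test between the genotypes could be made.

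Most probes of the targeted gene were not lower in the RNA labelled KO. The mean log2 ratio of KO over WT at the 4 Lats2 probes was -0.35, 0.56, 0.56 and 0.63, so that 3 of 4 were higher in the RNA labelled KO. These 3 lie close together, between bases 56644080 and 56645305 of the mm8 build, and some of them overlap, so they are not separate readings of the gene. The lower probe lies apart from them, at bases 56676512 to 56676571. Which part of the gene was deleted, and so whether any of the 4 probes lies in it, is not given in the sources used here, and a probe outside it checks nothing. Each RNA is for this reason named by its label (labelled KO, labelled WT), and the directions below hold only as far as the labels do. Of 10 fibroblast markers that could be measured, 9 were well above background in the RNA labelled KO and 10 in that labelled WT, with log2 ratios from -0.89 to 0.90, a median of -0.33 and none 2-fold different on each array. The marker that missed the limit in the RNA labelled KO was Vim, which also gave the -0.89. Its probe was dim, with signals before normalisation of 66.6 against 84.6 with KO in Cy5 and 42.2 against 170 with KO in Cy3. None of 4 endothelial and none of 2 pluripotency markers was above background in either RNA, against 1 of 5 epithelial, 2 of 5 blood and 1 of 4 muscle markers in both. Of 4 neural markers, 3 were above background in the RNA labelled KO and 2 in that labelled WT. The part of these markers in the results was not tested, and in bulk RNA fewer cells of a type cannot be told apart from less RNA per cell.

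The bases before the transcription start are shown for the 3 Meis genes, because Meis1 and Meis2 had lower and Meis3 higher ratios. Each is the 250 bases before the start, 5′ to 3′ on the gene's strand, from RefSeq on the GRCm38.p6 build, with every CpG in capitals. The Meis1 window lies at chr11:19018970-19019219 on the minus strand, the Meis2 window at chr2:116064620-116064869 on the minus strand, and the Meis3 window at chr7:16175145-16175394 on the plus strand.
Meis1: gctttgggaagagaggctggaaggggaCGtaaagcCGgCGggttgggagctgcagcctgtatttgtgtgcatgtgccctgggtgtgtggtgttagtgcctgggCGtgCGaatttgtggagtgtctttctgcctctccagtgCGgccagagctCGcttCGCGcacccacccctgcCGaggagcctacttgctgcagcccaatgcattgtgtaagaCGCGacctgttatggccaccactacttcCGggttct
Meis2: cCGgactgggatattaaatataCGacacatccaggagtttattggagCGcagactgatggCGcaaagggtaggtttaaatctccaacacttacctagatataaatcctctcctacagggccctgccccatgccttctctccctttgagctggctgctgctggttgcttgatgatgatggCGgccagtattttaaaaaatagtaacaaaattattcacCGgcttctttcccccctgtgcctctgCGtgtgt
Meis3: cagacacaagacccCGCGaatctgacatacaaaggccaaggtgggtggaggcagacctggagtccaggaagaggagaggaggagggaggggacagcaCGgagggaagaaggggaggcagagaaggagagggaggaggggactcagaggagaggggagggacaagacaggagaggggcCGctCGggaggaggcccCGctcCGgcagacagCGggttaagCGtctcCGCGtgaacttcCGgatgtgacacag

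Among 32851 such windows the median held 6 CpGs and 52.4% G and C. The Meis1 window had 13 CpGs and 59.6% G and C, and the Meis3 window 12 CpGs and 63.6%. The Meis2 window was closer to the median, with 7 CpGs and 47.6%. Windows were also found for Pbx2, with 27 CpGs, and Pbx4, so that 5 of the 8 genes matched. Sets of letters for 3 motifs were searched on both strands of these 5 windows: TGACAG, the core that Meis and Pknox proteins bind, TGATNNAT, a form bound by Pbx with Hox, and GGAATG, bound by the TEAD partners of the Hippo pathway. None was present in any of the 5, whereas 15.9%, 7.68% and 12.6% of all windows held them. An absent match says only that these letters are not in this window.

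No cofactor gene was 2-fold different on each array in either direction. This rule was met by 2.95% of all tested genes with the higher signal in the RNA labelled KO and by 2.59% with the lower. At 1.5-fold on each array the genes called were 0 of 8 higher and 0 of 8 lower, against 7.04% and 7.14% of all tested genes. With so few genes a count of 0 lies near these backgrounds. A looser rule asked for a ratio beyond 0.137 on each array, the standard deviation (SD) between arrays of 1 probe's ratio on the log2 scale. By it 4 genes were lower (Meis1, Meis2, Pbx3 and Pknox1, against 27.6% of tested genes) and 1 was higher (Meis3, against 26.3%). Without any limit on size, 6 were lower on both arrays (41.4% of tested genes) and 1 was higher (40.2%), while Pbx2 had opposite signs. The median log2 ratio of the 8 genes was -0.20, against -0.00 over all tested genes.

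**Figure D1:**
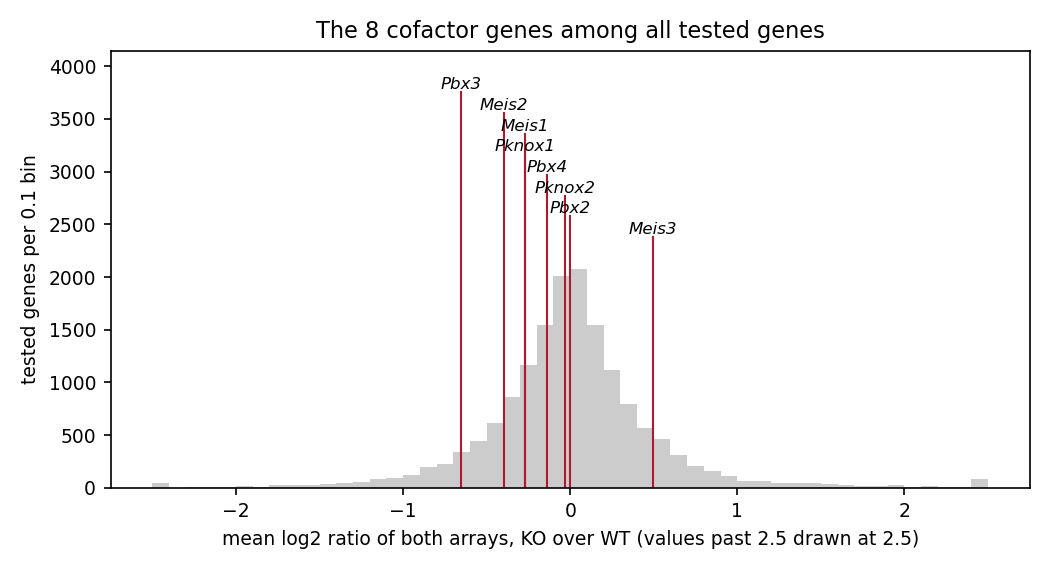
The grey bars count tested genes by their mean log2 ratio of KO over WT (horizontal axis, bins of 0.1 log2 units), and each red line marks 1 of the 8 cofactor genes, with line heights staggered only to separate the names. The genes lie between -0.65 (Pbx3) and 0.49 (Meis3), and Meis1 and Pknox1, both at -0.27, share nearly the same place.

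The Meis genes encode the DNA-binding partners that recruit and stabilise Pbx, and their ratios differed in sign, with none of the 3 called at 2-fold or at 1.5-fold. Meis1, best known from blood stem cells and leukaemia, was read by 2 probes. Its brighter probe lies at chromosome 11, bases 18781206 to 18781265 of the mm8 build, on the minus strand. Its normalised signal was 356 in the RNA labelled KO and 415 in that labelled WT on the array with KO in Cy5, and 345 against 432 on the array with KO in Cy3. Both KO values were below both WT values, so these 2 groups did not overlap. The share of tested genes split in this way was not counted, here or below. A looser rule, the same sign on both arrays, was met by 41.4% of tested genes (lower) and 40.2% (higher). The log2 ratio of this Meis1 probe was -0.22 and -0.32 on the arrays, with a mean of -0.27 ± 0.0737 (SD between arrays), or 82.8% of WT. The second probe, 130 kb upstream on the gene's strand, gave signals of 224 against 272 and 221 against 265 and a mean ratio of -0.27 ± 0.0103. The ratios of the 2 probes differed by 0.00, within the 0.0744 SD of that difference.

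Meis2, which the files name Mrg1 and which acts in limb, neural and cardiac development, was read by 3 probes, and each had a ratio below 0 on both arrays. The brightest (chromosome 2, bases 115554835 to 115554894 of mm8, minus strand) gave 3232 against 3862 with KO in Cy5 and 2799 against 4065 with KO in Cy3. The mean log2 ratio was -0.40 ± 0.199, or 75.9% of WT, and the groups did not overlap, although this gene had the widest spread between arrays of the 8. A probe starting 64 bases downstream gave 2957 against 4020 and 2824 against 3881, and its mean ratio was -0.45. The third probe (bases 115687533 to 115687592), 132.698 kb upstream, showed the lowest ratio of any cofactor probe. It was assigned to Meis2 by the shared name Mrg1 and not by a RefSeq accession. Its signals were 597 against 1113 and 651 against 1071, its mean ratio -0.81 ± 0.127, or 57.1% of WT. It lay 0.41 below the brightest probe on the log2 scale (a difference of -0.41 ± 0.236), so these probes did not give the same size. Probes this far apart can read different transcripts, and which transcripts they read was not tested.

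Meis3, named Mrg2 in the files and known for hindbrain patterning, was the only cofactor with a higher ratio beyond the spread. Its single probe (chromosome 7, bases 15343197 to 15343985 of mm8, plus strand) spans 789 bases of genome for 60 bases of probe, so it crosses at least 1 splice junction. Signals were 173 against 131 with KO in Cy5 and 172 against 114 with KO in Cy3, and the groups did not overlap. The mean log2 ratio was 0.49 ± 0.139, or 141% of WT, higher than 88.6% of tested genes. The signal is low, and no second probe was there to compare.

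Pknox1 and Pknox2 encode the Prep proteins, which compete with Meis for Pbx. Pknox1 is expressed in most tissues. Its single probe (chromosome 17, bases 31336031 to 31336090 of mm8, plus strand) gave 849 against 1080 with KO in Cy5 and 907 against 1034 with KO in Cy3. Both KO values were below both WT values, and the mean log2 ratio was -0.27 ± 0.113, or 83.0% of WT. Pknox2, a more restricted paralogue, gave 99.96 against 103.7 and 98.5 against 99.0 (chromosome 9, bases 36672904 to 36672963 of mm8, minus strand). Its groups overlapped and the mean ratio was -0.03 ± 0.0310, so no difference could be told from the spread of a single probe. The 2 other Pknox2 probes were not well above background in any channel.

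**Figure D2:**
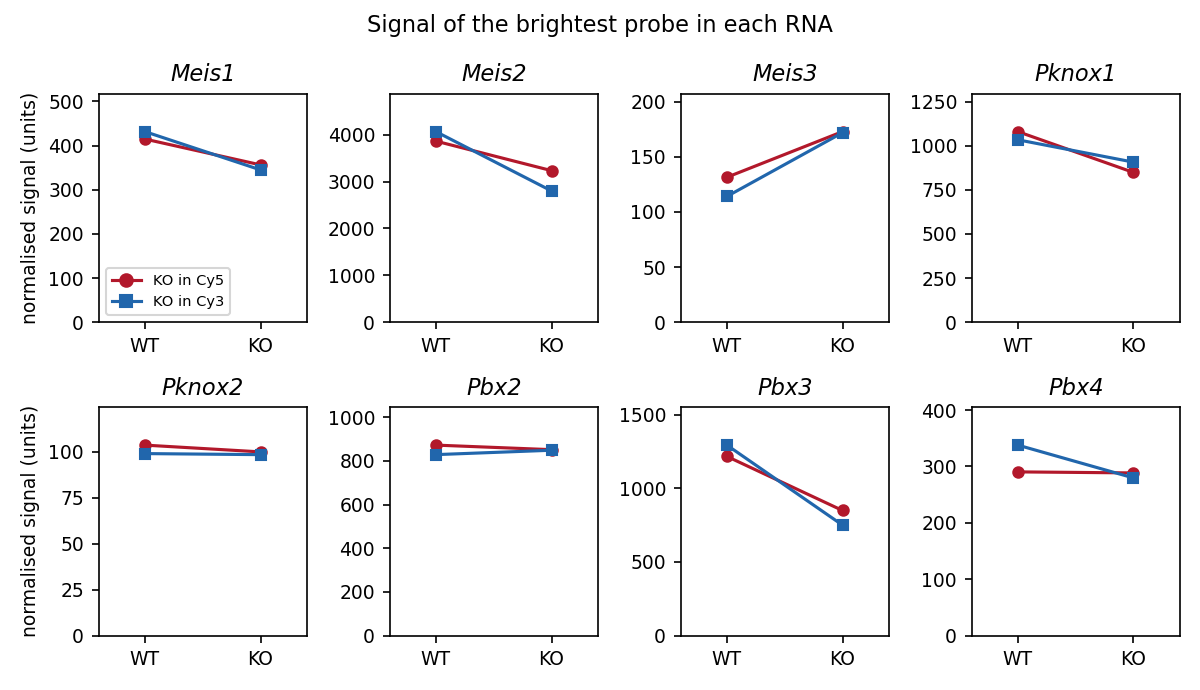
Normalised signal (arbitrary units, axis from 0) of each gene's brightest probe in both RNAs (WT and KO, as labelled), joined within an array, with circles for the array with KO in Cy5 and squares for that with KO in Cy3. Both lines fall for Meis1, Meis2, Pknox1 and Pbx3 and rise for Meis3, while Pknox2 and Pbx2 stay nearly level. The axes differ between genes, and signals of different probes are not comparable.

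The Pbx genes encode the subunits that pair directly with Hox proteins, and they differed among themselves. Pbx3, which acts with other Pbx genes in limb and brainstem development, had the lowest ratio of the 8 genes at the brightest probes. Its brightest probe (chromosome 2, bases 33993972 to 33994031 of mm8, minus strand) gave 850 against 1217 with KO in Cy5 and 750 against 1293 with KO in Cy3. The groups did not overlap. The log2 ratio was -0.52 and -0.79, with a mean of -0.65 ± 0.189, or 63.6% of WT, and 7.26% of tested genes had a lower one. The other Pbx3 probes gave ratios smaller in size, with means of -0.10 and -0.20. This depended on the processing. By Feature Extraction's own ratio 1 of them had -0.46 and -2.76 on the arrays and the other -1.16 and -0.84. The brightest probe had -0.60 and -0.84 by it. Both dimmer probes missed the background limit in the KO channel of the array with KO in Cy3, so the size for Pbx3 rests on 1 probe. With the mean over its probes the ratio was -0.32, and with the median over those above background -0.21. Meis2 was then the lowest, at -0.55 and -0.49.

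Pbx2, a broadly expressed family member, was level. Signals at its brightest probe (chromosome 17, bases 34204466 to 34204525 of mm8, plus strand) were 851 against 872 with KO in Cy5 and 849 against 829 with KO in Cy3. The groups overlapped, and the mean log2 ratio was -0.00 ± 0.0491. A second probe gave 0.09. Pbx4, best known from the testis, gave 289 against 290 and 280 against 338 (chromosome 8, bases 72801058 to 72801117 of mm8, plus strand). Both KO values lay below both WT values, although the first pair was nearly equal. Its mean log2 ratio was -0.14 ± 0.186, smaller than its own spread, and its second probe, 1.993 kb upstream, had the opposite sign at 0.15. No direction is given for Pbx4.

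**Figure D3:**
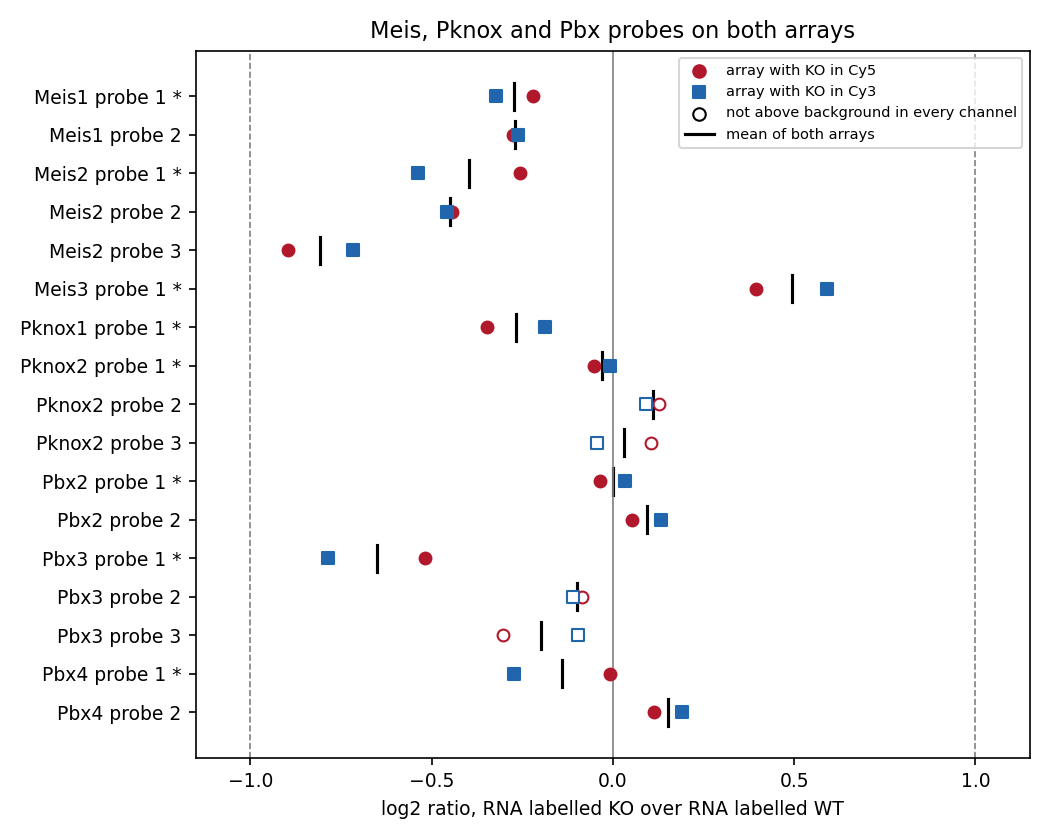
Log2 ratio of KO over WT for each of the 17 cofactor probes, with circles for the array with KO in Cy5, squares for that with KO in Cy3, black bars for their mean, an asterisk at each gene's brightest probe and open symbols for probes not above background in every channel. The dashed lines mark 2-fold. No probe reaches 2-fold, and Meis3 stands alone on the right. At the brightest probes 6 of 8 genes are below 0 on both arrays, against 41.4% of tested genes.

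In order of their mean log2 ratio the genes ran Pbx3, Meis2, Meis1, Pknox1, Pbx4, Pknox2, Pbx2 and Meis3. Of the 7 pairs of neighbours, 2 differed by more than 0.137, the SD that 2 probes' means would have from array error alone: Pbx3 lay 0.25 below Meis2, and Meis3 lay 0.49 above Pbx2. The order of Pbx3 and Meis2 turned when probes were averaged or their median was taken, which brings in the dimmer Pbx3 probes. The other neighbours did not differ beyond that spread. Over all 28 pairs, 21 differed by more than it, 20 of these with the same sign on both arrays.

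Related genes were counted with the same rule of 2-fold on each array. The other TALE homeobox genes of the Iroquois, Tgif and Mkx group were all tested, and 1 of 9 was higher, Irx1, which patterns embryonic tissue (a log2 ratio of 1.45). A second Irx1 probe gave 0.42, and the call was lost with median centring or with the probes averaged. Under median centring the brighter probe's mean ratio was 1.49, but it was no longer 2-fold on each array. The median over these genes was -0.01, with 2 lower and 4 higher on both arrays.

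Of 13 genes for proteins that work with Pbx, Meis or Pknox, 11 were tested, 1 was called higher and none lower. It was Pbxip1, whose product binds Pbx proteins and keeps them from Hox and from DNA. Its signals, at chromosome 3, bases 89534802 to 89534861 of mm8, were 12804 in the RNA labelled KO against 3225 with KO in Cy5, and 14328 against 3630 with KO in Cy3. The log2 ratio was 1.99 and 1.98, a mean of 1.98 ± 0.00575, or 3.96-fold higher. The list's median was -0.07, with 4 genes lower and 4 higher on both arrays.

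Retinoic acid controls Meis and Hox transcription in limbs and hindbrain. Of 15 genes for its synthesis, binding, breakdown and receptors 11 were tested, and 3 were lower and 1 higher. Aldh1a3, which makes retinoic acid, had a log2 ratio of -5.42 ± 0.473, with signals of 73.7 against 3972 and 127 against 4311. Its size depended on probe and processing, with -1.55 at a second probe (dim in the KO channel) and -7.02 at the first by Feature Extraction's own ratio. Cyp26b1, which degrades it, had -3.04 and the binding protein gene Crabp1 had -1.26, while Aldh1a1, another synthesis enzyme, had 1.17. With median centring of the arrays in place of loess, none was called higher and 2 were called lower. The mean ratios under it were 1.16 for Aldh1a1 and -1.20 for Crabp1. The median over tested genes was -0.26, with 6 lower and 3 higher on both arrays.

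Of 18 limb and axis patterning genes 13 were tested and 3 were lower, the homeobox genes Msx1 (-2.07) and Lhx9 (-1.58) and the hedgehog effector Gli3 (-1.47). Second probes gave -1.71 for Msx1, -0.30 for Lhx9 (dim in the KO channel) and -0.04 for Gli3 (not well above background in either RNA). The count of lower genes in this list was 1 when probes were averaged and 1 under median centring. The mean ratios under median centring were -2.06 (Msx1), -1.58 (Lhx9) and -1.46 (Gli3). The median over tested genes was -0.24, with 11 lower and 2 higher on both arrays. Among the Hox genes themselves 15 of 38 were tested and 7 were called higher, none lower. These 7 included 6 of 12 tested genes of paralogue numbers 1 to 8 and 1 of 3 of numbers 9 to 13. Of the called Hox genes, 3 did not pass the background limit in WT. Among the tested Hox genes 14 passed it in the RNA labelled KO and 8 in that labelled WT. For paralogue numbers 1 to 8 these counts were 12 and 6. Part of the tested Hox genes thus entered through the KO signal alone, and the shares called higher carry that selection. Over all 15886 tested genes the 2-fold shares were those given above, and each of these lists was chosen with earlier results of these data known.

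**Figure D4:**
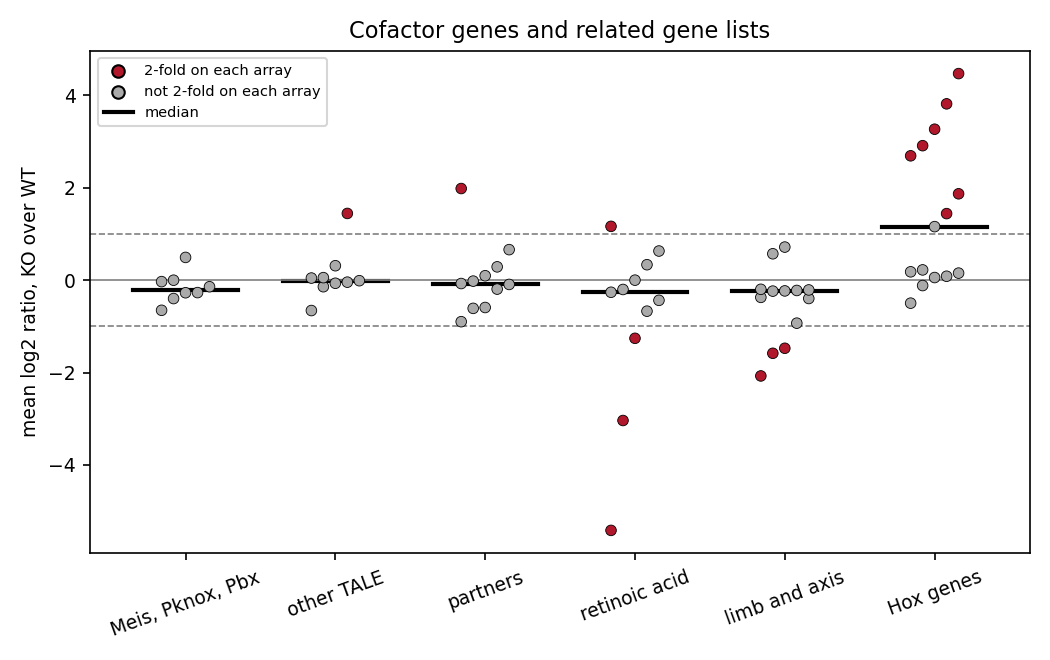
Mean log2 ratio of KO over WT of each tested gene in 6 lists, red where 2-fold on each array and grey where not, with a black bar at the median and dashed lines at 2-fold. The cofactor genes lie inside the dashed lines, while the retinoic acid list reaches -5.42 (Aldh1a3).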

How the data were processed

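Agilent 2-colour arrays of KO and WT RNA were analysed. Per the file headers, the authors read them with Agilent Feature Extraction 10.5.1.1 and deposited spot signals and local backgrounds as intensity in arbitrary units, with its log10 ratio of Cy5 over Cy3. They also deposited a table of log2 ratios of KO over WT (its own normalisation is not given in the sources used here). That scale and direction were found by setting it against the scanner values, and column medians were -0.0177 and 0.0367.

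From the intensities, limma 3.58.1 in R 4.3.3 was used for normexp background correction (offset of 50) and loess within arrays, with control spots given no weight. Flagged spots (0.899% and 0.871%) were left out, and 0 spots were saturated. Both arrays lie on the same slide and scan. Ratios were turned to KO over WT, and correlated at 0.899 between arrays over all probes. Normalised signals are per channel after Aquantile scaling between arrays. The brightest probe stands for a gene. Meis2 and Meis3 were found by RefSeq accession, since the files name them Mrg1 and Mrg2, and other members by name. The third Meis2 probe has no RefSeq accession and was assigned by the name Mrg1 that it shares. Probe coordinates are the files' own, on mm8, and no annotation of that build was used here. Other genes of these families are not reported here.

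A gene was called where its ratio was at least 2-fold on each array and the RNA with more signal passed Feature Extraction's background flag (well above background) on both. The rules at the SD between arrays and at any size were added after seeing the data. Members and lists were chosen with earlier results of these data known. Named genes were every member with every probe, called genes of the other lists (Hox genes by count only), Lats2, and the fibroblast marker Vim for its dim probe. The number of arrays limits the precision.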

Additional observations from a re-analysis of the deposited data

How the results depend on the processing

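No cofactor gene was called at 2-fold in either direction under any alternative run. Of 88 recomputed ratios of the 8 genes, 12 moved beyond the spread between arrays (7 larger in size, 5 smaller) and 8 had the opposite sign. The sign changed for Pbx2 under 5 settings, for Pbx4 at 0.0058 when its probes were averaged or their median was taken, and for Pknox2 at 0.037 when its probes were averaged. Pbx3 had a ratio of -0.32 with the mean over its probes and -0.21 with the median over probes above background, where Meis2 had -0.55 and -0.49 and was lower than Pbx3. Meis3 ranged from 0.40 on the array with KO in Cy5 alone to 0.76 with Feature Extraction's own ratio. Leaving out either array gave medians of -0.14 and -0.23 for the 8 genes, and medians ranged from -0.25 to -0.12 over all alternatives run.

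Called genes of the related lists changed as follows. With probes above background in both RNAs, 4 Hox genes, 3 of them of paralogue numbers 1 to 8, were higher. Irx1 lost its call (0 of the other TALE genes higher) with median centring and with the mean or the median over probes. Its mean ratio under median centring was 1.49. Retinoic acid genes called higher numbered 2 with the deposited table or Feature Extraction's ratio, and 0 with median centring, which left 2 called lower. Limb and axis genes called lower numbered 1 with median centring and with the mean over probes. On the whole array 599 probes were higher and 500 lower. These became 1280 and 1220 with the deposited table or Feature Extraction's ratio, 324 and 170 with median centring, 1482 and 1510 at 1.5-fold, and 0 and 0 by the methods' t-test after Benjamini-Hochberg adjustment, against 524 and 441 before it and 662 and 595 by limma. Either array alone gave 711 and 586 or 668 and 659. The share of higher calls was 54.5%, and 65.6% with median centring, under which the arrays correlated at -0.18. The cause of these changes was not tested. The t-test and limma on the arrays compare the RNAs hybridised, not the genotypes. No paired analysis was possible because both arrays were counted as 1 replicate, in which each array already sets KO against WT. Low signal limits Pknox2, Meis3 and the dimmer Pbx3 probes.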
